A study of Mus musculus with 42 samples.

Results

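The genes of voltage-gated sodium, potassium and calcium channels were followed in the brains of mice that lack the cap methyltransferase PCIF1. The set held every protein-coding gene of the deposited brain table whose symbol starts with Scn, a number and a or b, with Kcn, letters and a number, or with Cacna, Cacnb or Cacng. It came to 133 of the 50765 genes listed, 22008 of which are protein-coding. Of the 133, 97 encode pore-forming subunits and 36 encode auxiliary subunits. The symbols also take in 15 inward rectifier, 14 two-pore-domain and 8 calcium- or sodium-activated potassium channel genes, most of which are not gated by voltage alone, and calcium channel gamma subunits, several of which serve glutamate receptors.

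Brain lysates of 3 adult wild-type (WT) and 3 adult Pcif1 knockout (KO) mice each gave an input RNA library and a ribosome footprint library, 12 libraries in 4 groups of 3. The KO carries an 89 bp deletion at exon 15 and intron 16 that was made with Cas9, removes catalytic residues and brings in a premature stop codon. It is 1 line, started in B6D2F1/J embryos (a hybrid of C57BL/6J and DBA/2J) and crossed with C57BL/6J, so that the deletion and founder-strain alleles near it cannot be told apart. A second readout came from testes of adult heterozygous (HET) and KO mice, with input RNA and an m6A immunoprecipitate (IP) of m6Am-Exo-Seq, 3 libraries in each of 4 groups. Its control is HET, which carries 1 deleted allele, and not WT. The other 18 of 42 samples, RNA-seq of testes, spleen and brain, were not analysed here.

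Channel pores are built from large alpha subunits (Scna, Cacna1) or from tetramers or dimers of smaller ones (Kcn). Auxiliary subunits, such as the sodium channel beta subunits, Kv beta (Kcnab), KChIP (Kcnip), BK beta (Kcnmb) and calcium channel alpha2delta, beta and gamma subunits, set trafficking and gating. Sodium channels drive the rising phase of the neuronal action potential, potassium channels repolarise the membrane and set its resting level, and calcium channels couple depolarisation to transmitter release and gene expression. PCIF1 methylates the first transcribed base of an mRNA where that base is an adenosine, giving m6Am beside the cap, and the study used footprints to look for effects of its loss on translation. Ribosome footprints are the stretches of mRNA that ribosomes shield from nuclease, so their level against input RNA is a measure of translation of each gene.

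Because m6Am needs an adenosine start, short windows around the annotated starts (RefSeq, GRCm38.p6) are shown for members named repeatedly below. Each runs from 20 bases before to 9 bases after the annotated first base, 5′ to 3′ on the gene's strand, with that base in capitals. An annotated start is not a measured cap site.
Kcna6 (chr6:126740665-126740694, minus strand): ggcggggcctgccacgtcacTtggagagtg
Kcna4 (chr2:107290569-107290598, plus strand): cctcggcccggccaggccccGcccccgccc
Kcna2 (chr3:107101547-107101576, plus strand): ggggccaggtgcggcgctgcGtggcgcggt
Kcnh5 (chr12:75177323-75177352, minus strand): tcacttcctactcggcgcacAgtctgggct
Kcnj9 (chr1:172329313-172329342, minus strand): aaacgagagaggagcaggggAacctgggaa
Kcnj2 (chr11:111066144-111066173, plus strand): gaccgcctccaggctatcgcAgagcgcact
Kcnj3 (chr2:55435950-55435979, plus strand): ctccgcttgagccttgcatcCtccatccat
Cacnb1 (chr11:98018363-98018392, minus strand): agcaattctgcttgtaacctGagctcctgg
Cacnb1 (chr11:98022618-98022647, minus strand): gcggaggcggcggcggcggcGacggcggca
Cacng7 (chr7:3332805-3332834, plus strand): atgagcggccgctggtccctGctcccggct
Cacng8 (chr7:3394022-3394051, plus strand): ctctcttttgcctccaccagCtggagacta
Scn1a (chr2:66440828-66440857, minus strand): cccagcactgatgcttcattAtgtaagtct
Scn4b (chr9:45138604-45138633, plus strand): ctgcagtgccaagccgcagcAttcccgtcc
Of these, Kcnh5, Kcnj9, Kcnj2, Scn1a and Scn4b have an annotated adenosine start, and Kcna6, the member whose WT footprints lay farthest below input, has a T. Over 98 members with a listed promoter, 45 of 134 starts were A, or 33.6%, against 36.5% of 20087 starts of 16464 protein-coding genes. G was the commonest start base, at 42.5% of the members' starts. The pair CA across the start stood at 20.9% of the members' starts and 22.2% of all starts. A TATAAA motif on the gene's strand between 40 and 16 bases before the start was found at 1 member start, 0.746%, against 2.48% of all starts. The median number of CG pairs in the 300 bases around the start was 9 for members and 14 for all protein-coding starts.

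All values below are the authors' scaled reads per gene, called signal here. They are not divided by transcript length, so levels are compared only within a gene. Input libraries stood for 15171376 to 17443749 estimated reads in WT and for 5528738 (replicate 2) to 16206024 in KO, and footprint libraries for 13613498 to 16559686. Channel genes held 1.11 to 1.16% of the protein-coding signal in inputs and 0.842 to 0.937% in footprints. The median coefficient of variation of a channel gene was 9.8% in WT input, 12.7% in KO input, 22.3% in WT footprints and 14.9% in KO footprints. Ribosomal RNA genes took 49.9%, 74.4% and 58.7% of the signal in the WT footprint libraries and 72.6%, 68.9% and 67.6% in the KO ones. WT footprint replicate 2 stood apart from its group: in 75 of 107 channel genes it was nearer the KO mean than the mean of the other 2 WT libraries, against 33 and 34 for the other WT libraries and 35 to 42 for the KO ones. Results on footprints are therefore given with and without it. Pcif1 itself gave an input signal of 253, 318 and 388 in WT against 255, 201 and 259 in KO. These overlap, with a log2 difference of -0.41 (limma adjusted p = 0.491). In footprints its difference was 0.20 (limma adjusted p = 0.768). The total of Pcif1 thus does not check the genotype labels in either layer. How far a deletion of 89 bp should lower that total was not tested.

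Of the 133 members, 113 had a signal of 10 or more in 3 or more of the 12 brain libraries, 82 pore-forming and 31 auxiliary. The 20 below that level include channels known from other tissues: the skeletal muscle sodium channel Scn4a, the pain-fibre sodium channels Scn10a and Scn11a, the retinal Cacna1f and Kcnv2, the cardiac and epithelial Kcnq1 and its partner Kcne1, the renal Kcnj1 and the sperm channel Kcnu1. The others were Cacng6, Kcna7, Kcna10, Kcne3, Kcnj15, Kcnk7, Kcnk16, Kcnk18, Kcnmb1, Kcnmb3 and Kcnn4. Kcne1 and Kcnk16 were listed at 0 in every library. Scn4a stayed at or below 1.8 in every library.

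No channel gene passed the test between KO and WT brain in input RNA. Among 109 members tested, 0 had a limma adjusted p below 0.05, where 0.255% of all tested genes did, and 4 higher and 3 lower members had an unadjusted p below 0.05, where 10.5% of all tested genes did. The members' median log2 difference was -0.02, against 0.02 over all tested genes. It was -0.03 for the 78 pore-forming and -0.01 for the 31 auxiliary members. The median 95% interval of a member reached 0.37 log2 units to either side. Signal from fewer cells of a type and from less RNA per cell cannot be told apart in whole brain.

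In input, 0 of 7 sodium channel alpha and 0 of 4 beta subunit genes had an unadjusted p below 0.05. Scn2a, a main alpha subunit of excitatory neurons, gave 3788, 3791 and 4266 in WT against 4029.7, 4869 and 4365 in KO, a log2 difference of 0.16 (95% interval -0.07 to 0.39). Of its 3 KO libraries 1 lies within the WT range and 2 lie above it. Scn1a, the alpha subunit best known from inhibitory neurons, gave 2076, 1919 and 1866 in WT against 2342, 2332 and 1985 in KO (0.18, -0.04 to 0.41). Scn8a, the alpha subunit of the axon initial segment and nodes, spread widely in both groups, with 1039.6, 1472 and 1826 in WT against 1894, 583 and 1808 in KO, where the shallow replicate 2 was the low one. Among the sodium beta subunits the highest log2 difference was 0.08, for Scn2b. Scn4b, which forms a disulphide bond with alpha subunits, gave 1348, 1417 and 1417 in WT against 1351, 1435 and 1439 in KO. Reads of Scn1a, Scn2a, Scn3a and Scn9a, close relatives in 1 cluster, may be split between them.

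Among potassium channels, the lowest adjusted p belonged to Kcnj6, a G protein-gated inward rectifier (GIRK2). Its input signal was 269.7, 234 and 236 in WT against 171, 165 and 172 in KO. The groups do not overlap, and the log2 difference was -0.54 (95% interval -0.80 to -0.28; limma adjusted p = 0.19). Kcnj9, the GIRK3 subunit that assembles with Kcnj6, lay the other way, with 314, 323 and 384 in WT against 401, 403 and 415 in KO (0.26, 0.00 to 0.52; limma adjusted p = 0.469). Kcnj2, a strong inward rectifier, gave 193, 163 and 151 and 226, 220.2 and 207 (0.37; limma adjusted p = 0.41). Kcna1, an axonal Kv1 pore, gave 911, 1048 and 1006 in WT against 1188, 1158 and 1127 in KO (0.23; limma adjusted p = 0.422). Kcnn1, a small-conductance calcium-activated channel, gave 109.7, 96.9 and 90.7 and 57.1, 40.9 and 82.2 (-0.77; limma adjusted p = 0.41). Of the auxiliary subunits, the Kv beta gene Kcnab1 had a log2 difference of -0.31 and the calcium channel beta gene Cacnb2 one of 0.49, with 130.0, 139.6 and 135 in WT against 172, 190.2 and 208 in KO (limma adjusted p = 0.273). In 12 members all 3 KO libraries lay above all 3 WT libraries, against 10.6% of all tested genes, and in 13 all lay below, against 7.84%.

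Footprints gave no call either. Of 107 members tested, 0 had a limma adjusted p below 0.05 (0.223% of all tested genes did), and 6 higher and 8 lower members had an unadjusted p below 0.05, where 10.8% of all tested genes did. The median log2 difference was 0.05, against 0.01 over all tested genes, 0.06 for 78 pore-forming and 0.01 for 29 auxiliary members. The median 95% interval reached 0.59 log2 units to either side. All 3 KO libraries lay above all 3 WT libraries in 7 members, each of them pore-forming, against 8.46% of all tested genes. All 3 lay below in 14 members, 8 pore-forming and 6 auxiliary, against 8.74% of all tested genes.

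Kcna6, a Kv1 pore subunit, stood out by its low footprint signal. Its input signal was 764, 794 and 868 in WT against 753, 857 and 745 in KO, which overlap. Its footprint signal was 23.2, 25.8 and 31.8 in WT against 50.2, 50.8 and 91.9 in KO, so every KO library lay above every WT library. The WT values stand for about 16.4, 17 and 24.2 reads and the KO values for about 39.1, 39.3 and 82.9. The footprint difference was 1.18 on the log2 scale (95% interval 0.38 to 1.98; limma adjusted p = 0.398). With the spread taken from all 12 brain libraries the same difference had an adjusted p of 0.0339. Kcna4, another Kv1 pore and the one that inactivates fast, gave footprints of 142, 169 and 111 in WT against 177, 243 and 296 in KO (0.75; limma adjusted p = 0.425), again without overlap.

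The inward rectifiers Kcnj2 and Kcnj9 and the M-current subunit Kcnq5 lay above WT in every KO library of both layers, and Kcnab3, Kcnf1 and Kcnj12 lay below in both. The share of all tested genes without overlap in both layers was not computed, so these members are listed as a description. The 2 layers share lysates and are not independent. Kcnj9 footprints were 525, 654 and 501 in WT against 709, 790.4 and 779.7 in KO (0.45; limma adjusted p = 0.43). Kcnq5 footprints were 179.8, 213 and 147 and 280.4, 286 and 241 (0.59). Kcnq5 overlaps the processed pseudogene Gm7658, whose signal was 0, 1.93 and 0 in WT input, 54.8, 23.3 and 16.1 in KO input, 0 in each WT footprint library and 38.9, 13.9 and 11.8 in KO footprints, and the part of its reads in the Kcnq5 values was not tested. For these 6 members the log2 difference was smaller than 1 in each layer.

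Lower KO footprints without overlap were seen in calcium channel genes. Cacna1g, the T-type pore of thalamic and other burst-firing neurons, gave 704, 475 and 584 in WT against 292, 389 and 377 in KO (-0.73, -1.21 to -0.25; limma adjusted p = 0.392), while its input values overlapped. Cacng8, an auxiliary subunit of AMPA receptors in the hippocampus, gave 571, 527 and 553 and 424, 449 and 349 (-0.44; limma adjusted p = 0.435). Cacnb1, a cytoplasmic beta subunit, gave 689.9, 929.6 and 604 and 388, 380.5 and 482 (-0.81; limma adjusted p = 0.373). Cacnb1 overlaps the ribosomal protein gene Rpl19, whose footprint signal was 1926, 116 and 694 in WT against 98.2, 56.3 and 74.8 in KO, with input between 891 and 1032 in both groups. The sources used here do not state whether counting used strand, so the part of Rpl19 reads in the Cacnb1 values was not tested. The 2 largest log2 differences were in thinly read genes: Kcnk5, an acid-sensitive two-pore-domain channel, gave 36.6, 31.1 and 19.9 and 3.5, 12.5 and 4.4 (-2.09; limma adjusted p = 0.392), and the next was Kcnk6, which overlapped.

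**Figure D1:**
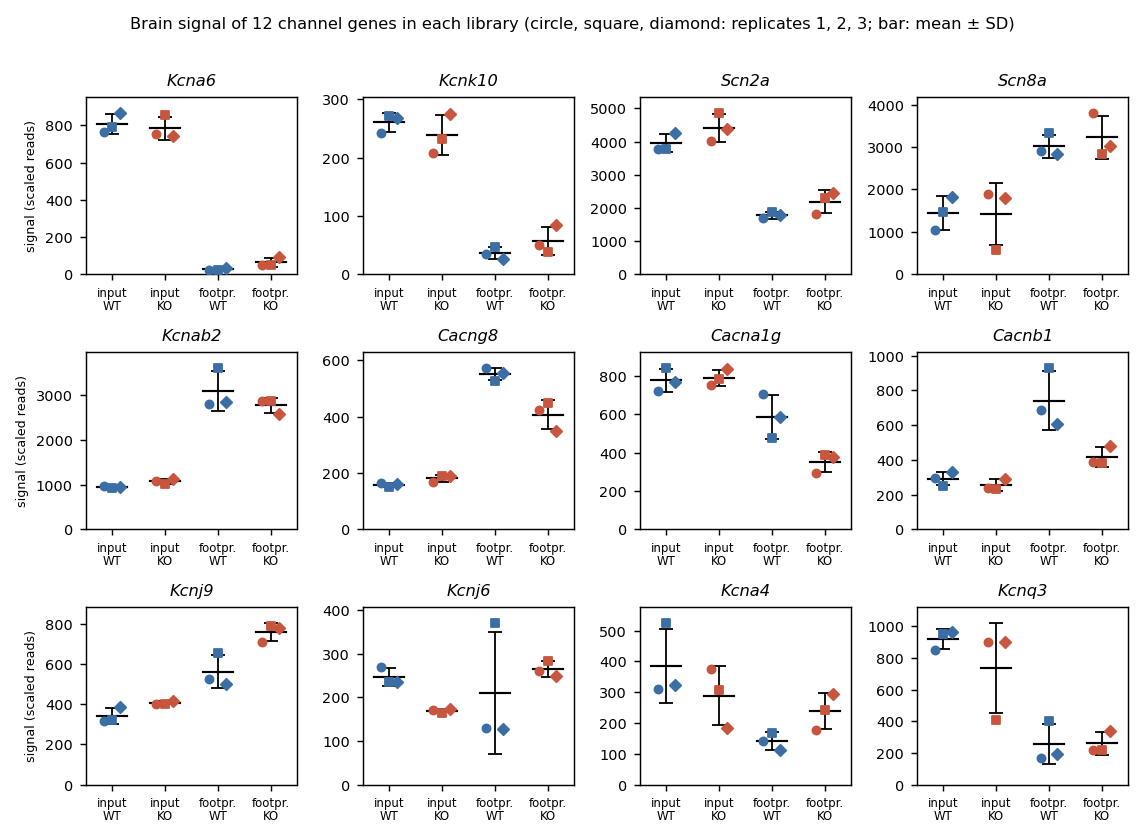
Signal of 12 channel genes in brain (vertical axis, scaled reads, from 0 in each panel) in input and footprint libraries of WT (blue) and KO (red). Points are single libraries, bars are the mean and SD of 3. Kcna6 footprints sit near the bottom of the axis in both genotypes, and WT footprint replicate 2 (square) lies apart from the other 2 WT libraries in Kcnj6 and Kcnq3.

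The difference between footprints and input, KO against WT, is the change in translational efficiency. Of 113 members, 0 had a limma adjusted p below 0.05 (0.188% of all tested genes did), and 6 higher and 5 lower members had an unadjusted p below 0.05, where 9.78% of all tested genes did. The median was -0.01, and the median 95% interval reached 0.74 log2 units to either side. Kcna6 had the lowest adjusted p among members, at 0.301, with a difference of 1.22 (0.53 to 1.92). In the authors' deposited table Kcna6 was the only one of 113 members with an adjusted p below 0.05, at 0.0201 with a log2 value of 1.24. That table lists 126 of 16307 genes below 0.05, or 0.773%. The next members in the authors' deposited table were Cacna1g (-0.76, adjusted p 0.106) and Cacng8 (-0.62, adjusted p 0.114). In the limma fit the corresponding differences were -0.75 for Cacna1g (adjusted p = 0.389) and -0.64 for Cacng8 (adjusted p = 0.362). The other members with an unadjusted p below 0.05 were Kcna4 (1.18), Cacng7 (1.13), Kcnj6 (1.06), Kcnab1 (0.64), Kcnh5 (0.55), Cacnb1 (-0.62), Kcnh3 (-1.78) and Kcnk5 (-2.67). Kcnk5 met the filter here too through its WT footprints. Its input stands for about 6.8, 3.4 and 11.4 reads in WT and 11.4, 1.3 and 24.1 in KO.

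**Figure D2:**
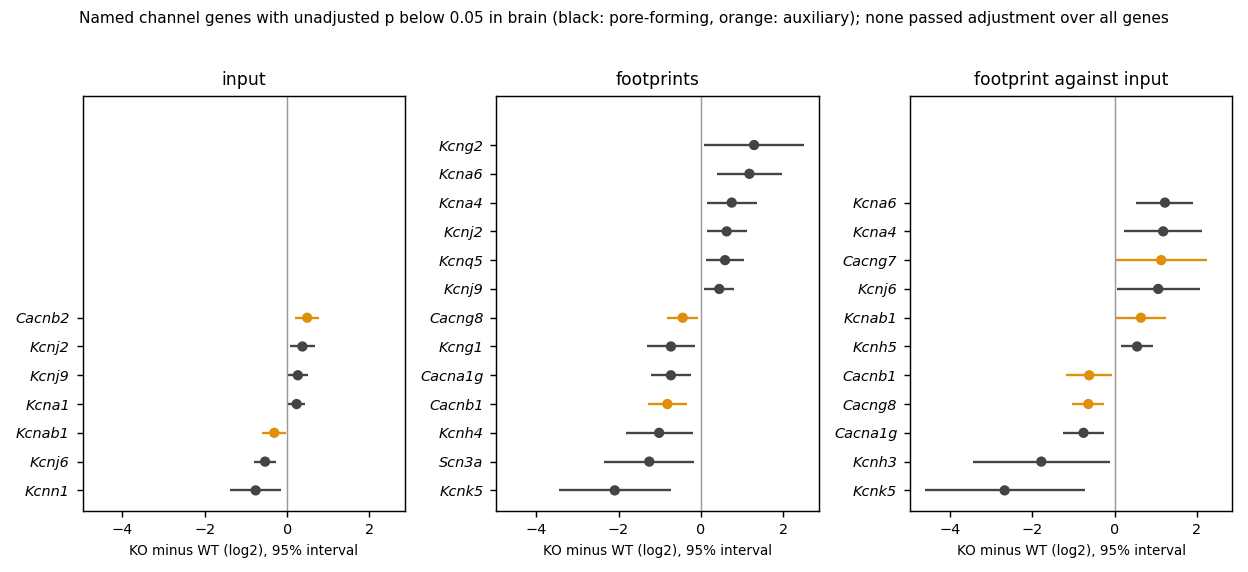
KO minus WT on the log2 scale (horizontal axis, the same in the 3 panels) for named members with an unadjusted p below 0.05 in input, footprints and footprint against input. Points are the limma estimates, lines the 95% intervals, black pore-forming and orange auxiliary. Input intervals are the narrowest, and Kcnk5 has the widest in both right-hand panels.

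The library that stood apart, WT footprint replicate 2, was picked out by its nearness to KO in these same genes, so that leaving it out widens KO against WT differences by that choice, and the values without it are given as a description. Without it, footprints had 4 members higher and 4 lower in KO with an adjusted p below 0.05, 7.48% of the members, where 6.77% of all tested genes were called. Efficiency had 4 higher and 2 lower, 5.36% of the members, where 5.32% of all tested genes were called. Both shares lie near those over all genes. Kcnj6 was among the members called higher in both, with WT footprints of 130.0, 371 and 128 and KO footprints of 261, 284 and 249.5, where WT replicate 2 was the highest of all 6 (log2 difference 1.03 without it). Cacng7, a type II AMPA receptor regulatory subunit, gave 76.5, 278 and 108 in WT against 283, 236 and 233 in KO, with replicate 2 within the KO range (1.45 without it). Scn3a, the alpha subunit of embryonic and early postnatal neurons, gave 408, 142 and 551 in WT against 124, 126 and 149 in KO, with replicate 2 again within the KO range (-1.83 without it). The other members called without replicate 2 included Kcna2 and Kcnj9 higher and Cacna1g and Kcnj3 lower in footprints, and Cacng7, Kcnab1 and Kcnh5 higher and Cacna1g and Kcnj3 lower in efficiency. Kcna6 was among neither set. With 2 WT footprint libraries left, the rRNA share was 49.9% and 58.7% in WT against 67.6% to 72.6% in KO, and its part in these differences was not tested.

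Summed signals of markers of other brain cells did not overlap between the genotypes in several lists, and limma called 0 markers of these lists between KO and WT after adjustment. The summed input signal of 8 oligodendrocyte markers was 21810 to 22770 in WT and 31780 to 33770 in KO. Of the 8, 6 had an unadjusted p below 0.05 with a higher value in KO. In footprints the sum was 35770 to 52180 in WT, lowest in replicate 2, and 62140 to 69520 in KO. The sum of 7 microglia markers was 897 to 991 in WT input and 700.2 to 782 in KO input. Of the 7, 3 were lower at an unadjusted p below 0.05. In footprints the sum was 1492 to 2200.0 in WT and 1189 to 1229 in KO. C1qa and C1qb were lower in KO without overlap in input and footprints, and Csf1r in input only. C1qb input was 125.1, 110.0 and 82.63 in WT against 55.33, 25.33 and 30.83 in KO. Aif1, Cx3cr1, P2ry12 and Tmem119 overlapped between the genotypes in both. The 7 astrocyte markers summed to 14600 to 15950 in WT input and 16990 to 17590 in KO input, with overlapping footprint sums. Of the 7, 1 was higher in KO input at an unadjusted p below 0.05, and their median log2 difference was 0.08. The largest part of the input sum was Slc1a2, with 6104, 6931 and 7372 in WT against 8150, 8380 and 8394 in KO. Aldh1l1 lay the other way, with 369.3, 450.1 and 370.7 in WT against 339.1, 352.8 and 357.1 in KO. The 9 cerebellum markers summed to 3725 to 4138 and 4270.0 to 4958 in input and to 5603 to 6400 and 6438 to 6836 in footprints. The 7 muscle markers summed to 137 to 169 in WT input and 87.9 to 111 in KO input. The largest part of that was Myh7, with 128.9, 98.01 and 108.1 in WT against 52.14, 77.2 and 54.94 in KO. Of the 7, 2 reached the level for testing in input. Their footprint sums overlapped, at 36.63 to 79.37 in WT and 42.44 to 66.05 in KO. The 9 neuron markers summed to 31380 to 33520 in WT input and 30110 to 35640 in KO input. The part of cell makeup in the channel values was not tested. Pituitary markers stayed at a summed signal of 62.5 or less, and Prl was at 0 in the footprint libraries.

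Within a genotype, channel footprints stood both far above and far below input, and the pattern was shared by WT and KO. In WT, 24 of 113 members had higher and 38 lower footprint than input signal at a limma adjusted p below 0.05, where 25.2% of all tested genes were higher and 29.1% lower. In KO, 18 were higher and 36 lower, where 24% and 28.4% of all tested genes were. Of these, 15 were higher and 30 lower in both genotypes, 0 were called in opposite directions, and 99 of 113 had the same sign. Across the 113 genes the WT and KO values gave a Pearson r of 0.867, as a description over genes that share lysates and libraries, and 0.905 over all 16527 tested genes. The median log2 difference was -0.20 in WT and -0.23 in KO, against -0.09 in both over all tested genes. Footprints come from the translated part of an mRNA and input reads from its whole length, and lengths were not used here, so this difference does not rank genes by rate of translation.

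The 2 kinds of subunit are given apart. Among 82 pore-forming members 15 were higher and 30 lower in WT, with a median of -0.34, and 8 higher and 28 lower in KO, with a median of -0.32. Among 31 auxiliary members 9 were higher and 8 lower in WT, with a median of 0.02, and 10 higher and 8 lower in KO, with a median of 0.06. The difference between the 2 kinds was not tested. Scaling each library to an equal sum of protein-coding signal moved the all-gene median to -0.36 in WT and -0.30 in KO. It left 16 higher and 45 lower members in WT and 16 and 44 in KO. The share of all tested genes called with this scaling is not given here, so these counts describe the members only. With that scaling the auxiliary median turned to -0.23 in WT and -0.15 in KO. Its distance above the all-gene median was 0.11 as deposited and 0.13 with equal sums in WT. No call changed sign. The WT calls lost with equal sums were Cacna1b, Cacna1e, Cacna2d2, Kcnj13, Kcnk12, Kcnk15, Kcns1 and Scn8a, all higher, and the KO calls lost were Cacng5 and Kcna3, both higher.

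**Figure D3:**
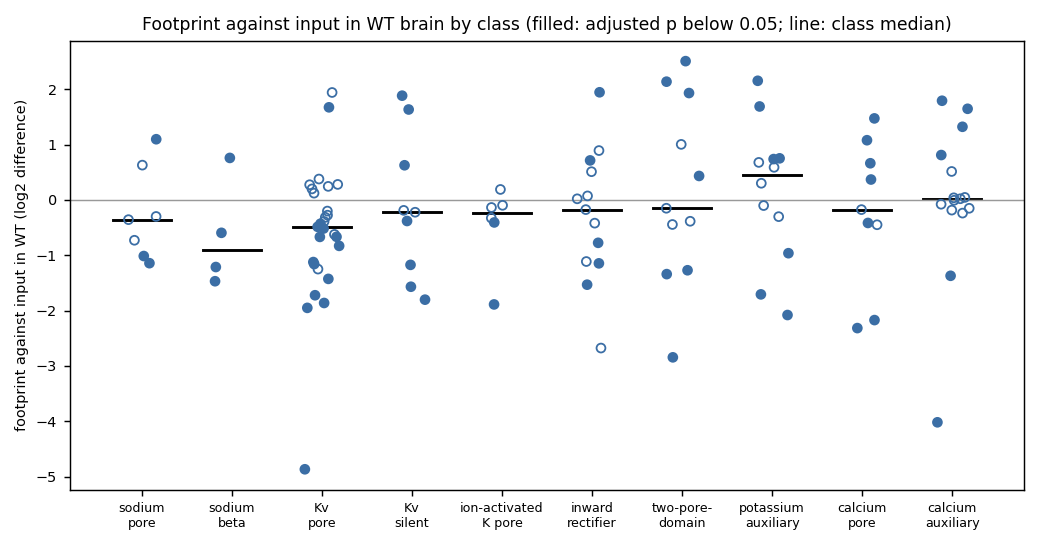
Footprint against input in WT brain (vertical axis, log2 difference) for the 113 members by class. Each circle is 1 gene, filled where the adjusted p is below 0.05, and the black line is the class median, which is highest in potassium auxiliary subunits (0.44) and lowest in sodium beta subunits (-0.90).

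Of the 11 sodium channel genes tested, 2 were higher and 5 lower in WT footprints than in input. Scn2a footprints were 1687, 1889.9 and 1778 in WT against 1808, 2315 and 2452 in KO, below each input library of either genotype, with differences from input of -1.14 in WT and -1.02 in KO (limma adjusted p = 1.82e-05 and 4.72e-05). Scn1a was nearly the same, at -1.02 and -1.06. Scn8a went the other way, with footprints of 2903, 3330.4 and 2826 in WT against 3807, 2846 and 3022 in KO (1.10 and 1.34), and its WT call was lost with equal sums. Of the beta subunits, Scn2b (-1.21 in WT, -1.16 in KO) and Scn4b (-1.47, -1.57) were lower and Scn3b (0.76, 0.71) was higher in footprints than in input, each called in both genotypes. Scn4b footprints were 482, 547 and 479 in WT against 490.2, 485 and 451 in KO, close together and far below each input library.

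Of 27 Kv pores tested, 1 was higher and 13 lower in WT, with a median of -0.49, and 2 higher and 12 lower in KO, with a median of -0.45. Kcna6 had the lowest value of all 113 members in WT, -4.87 (95% interval -5.36 to -4.38), and -3.65 (-4.14 to -3.16) in KO, where the thinly read Cacng1 was lower (-5.35). The M-current pore Kcnq3 stood at -1.95 and -1.44, called lower in both genotypes, with footprints of 169.7, 401 and 195 in WT against 218, 221 and 341 in KO beside inputs of 849, 950.1 and 962 and 898, 405 and 903. The A-type pore Kcnd2 was also called lower in both genotypes (-0.52 and -0.39).

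Of the Kv3 pores, Kcnc2 (-1.16) and Kcnc4 (-0.67) were called lower in WT and Kcnc1 (0.38) was not called. Kcnd3, an A-type pore, was called in neither genotype, with footprints of 645, 1273 and 394 in WT against 881, 591 and 52.7 in KO. The silent subunits, which modify Kv2 pores, split into Kcng1 (1.88 in WT), Kcng2 (1.63) and Kcns1 (0.63) higher and Kcnf1 (-0.38), Kcng3 (-1.57), Kcns2 (-1.17) and Kcns3 (-1.80) lower.

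Among other potassium pores, the two-pore-domain channel Kcnk10 (TREK-2) gave footprints of 34.3, 47 and 27.2 in WT against 49.5, 38.1 and 83.8 in KO beside inputs of 242, 272 and 268 and 208, 232 and 276 (-2.85 and -2.11). Its relative Kcnk2 (TREK-1) stood at -1.27 and -1.41, and Kcnk9 at -1.34 and -1.14, all called lower. Of the inward rectifiers, Kcnj9 was called higher in both genotypes (0.71 and 0.90) and Kcnj2, Kcnj4 and Kcnj12 lower in both, while the glial Kcnj10 lay at 0.02 and 0.28, not called. Kcnma1, the BK pore, was lower by a small and steady amount: 1175, 1091 and 1142 in WT footprints and 1136, 1052 and 1249 in KO footprints beside inputs of 1362, 1666 and 1508 and 1407, 1572 and 1603 (-0.41 and -0.42). Its auxiliary subunit Kcnmb4, the neuronal BK beta subunit, was lower by more, at -2.08 and -1.78.

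Kv beta subunits stood above input. Kcnab2 footprints were 2804, 3618 and 2864 in WT against 2877, 2878 and 2586 in KO beside inputs of 977, 937 and 947 and 1091, 1023 and 1136 (1.69 and 1.36). Kcnab3 stood at 2.15 and 2.38, the highest of the auxiliary members in both genotypes, and Kcnab1 at 0.30 (not called) and 0.94 (called). Of the Kv1 pores that these subunits bind, Kcna1 was called lower in both genotypes (-0.43 and -0.50), as was Kcna6, Kcna2 in neither (-0.20 and 0.23), Kcna4 lower in WT and not called in KO (-1.43 and -0.25) and Kcna5 lower in KO and not called in WT (-0.32 and -0.77). Kcna3 was not called in WT and was called higher in KO (0.12 and 0.46), a call lost with equal sums. Of the KChIPs, which bind Kv4 pores, Kcnip4 was called higher in both (0.75 and 0.76), Kcnip3 higher in WT and not called in KO (0.74 and 0.31) and Kcnip1 lower in both. The difference between the genotypes for Kcnip3 did not pass the test (-0.43; limma adjusted p = 0.609).

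Calcium channels spread to both sides. Cacna1a, the P/Q-type pore of Purkinje cells and terminals, gave footprints of 1447, 859 and 2609 in WT against 1115, 1315 and 2778 in KO beside inputs of 381, 730.0 and 544 and 378, 465 and 431 (1.47 and 1.91), with replicate 3 the highest footprint library of each genotype. Cacna1i, a T-type pore, was called higher in WT (1.08) and the L-type Cacna1d lower in WT (-2.17). In Cacna1g the value was -0.42 in WT and -1.17 in KO, both called lower. Of the auxiliary subunits, Cacng8 (1.79 and 1.15), Cacng3 (1.65 and 1.46), Cacnb1 (1.32 and 0.70) and Cacna2d2 (0.81 and 1.41) were called higher in both genotypes. Cacna2d1, the gabapentin-binding subunit, Cacnb3 and Cacnb4 lay within 0.2 log2 units of input in both. Cacng1, the skeletal muscle gamma subunit, had a footprint signal of 2, 0 and 3 in WT against 0, 1 and 1.6 in KO beside inputs of 23, 32.8 and 62.4 and 32.2, 192 and 54.3, where 1 KO input library (replicate 2) was far above the others.

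**Figure D4:**
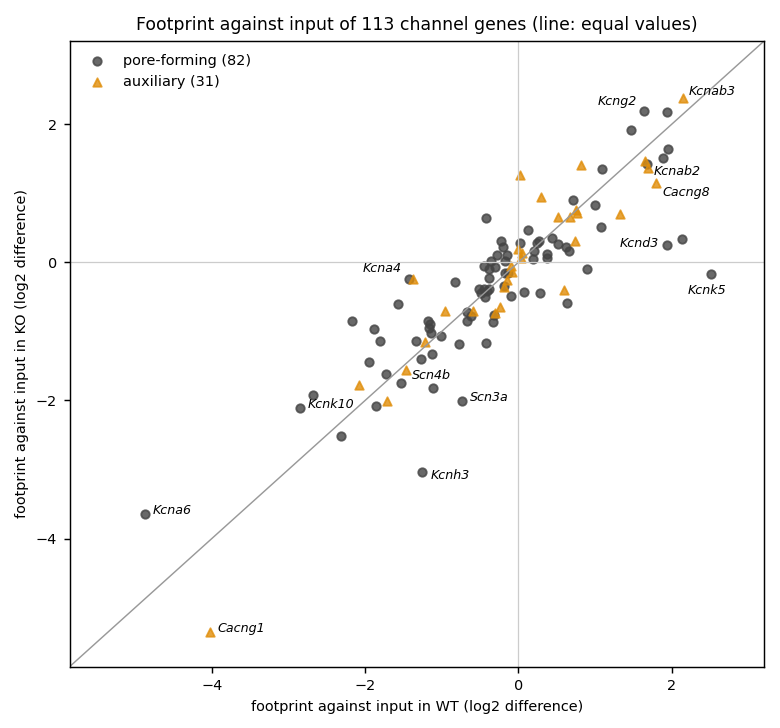
Footprint against input (log2 difference) in KO (vertical axis) against WT (horizontal axis) for 113 channel genes, 82 pore-forming (circles) and 31 auxiliary (triangles), with the line of equal values. Genes lie along the line from Kcna6 and Cacng1 at the low end to Kcnab3 at the high end, with Kcnk5, Kcnd3 and Kcnh3 below it.

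Genes that act beside the channels gave no genotype call either. Of 43 partner genes (HCN channels, ankyrins, node proteins, sodium pump subunits and others) 42 were found and tested. After adjustment limma called 0 of them between KO and WT in input, footprints or efficiency, and 4 higher and 3 lower in input, 2 higher and 4 lower in footprints and 0 higher and 2 lower in efficiency had an unadjusted p below 0.05, where 10.5%, 10.8% and 9.78% of all tested genes did. Against input, 14 had higher and 10 lower footprints in WT and 13 and 9 in KO, where 25.2% and 29.1% of all tested genes were called in WT and 24% and 28.4% in KO. The sodium pump beta subunit Atp1b2 (3.20 in WT) and the juxtaparanodal adhesion protein Cntn2 (2.01) were among the high ones, and Unc79 (-2.53), a subunit of the sodium leak channel complex, and the BK gamma subunit Lrrc55 (-2.42) among the low ones.

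Overlapping annotation and the place of the deletion were checked for the members. By RefSeq positions, 42 members overlap a gene with a row in the brain table, and for 15 that gene is protein-coding, among them Kcnh3 with Mcrs1, Kcnab2 with Nphp4 and Kcnj13 with Gigyf2. Values of these members are uncertain without strand. On chromosome 2, which carries Pcif1, 17 members were tested in input and 18 in footprints. The median size of the KO against WT input difference was 0.19 log2 units for members on chromosome 2 and 0.19 for those elsewhere, and in footprints 0.29 and 0.27. By annotated start base, 24 members with only adenosine starts had a median input difference of 0.04 (17 tested), and 59 with no adenosine start one of 0.00 (49 tested). In footprints the medians were -0.09 (14 tested) and 0.07 (50 tested), and in efficiency -0.13 (18 tested, 27.8% above 0) and 0.00 (50 tested, 50% above 0). The 15 members with both kinds of start had medians of -0.15 in input, 0.18 in footprints and 0.20 in efficiency (14 tested in each, 71.4% above 0 in efficiency). Over all protein-coding genes tested in efficiency, 49.3% lay above 0 with only adenosine starts, 49.8% with none and 48.5% with both kinds. The contrast between the kinds of start was not tested.

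In testes few channel genes were expressed at a testable level. Of 101 members with a row, 20 had a signal of 10 or more in 3 or more of the 6 input libraries and 22 in at least 3 of all 12. Channel genes held 0.0586 to 0.0759% of the protein-coding signal in testes input. Kcnu1, the sperm potassium channel, stayed below that level, with 7.91, 9.24 and 6.37 in HET input and 4.43, 5.25 and 1.64 in KO input.

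Cacnb1 was the 1 channel gene that fell in KO testes input, and 0 rose. Its signal was 684, 668 and 511 in HET and 432, 303 and 375 in KO, without overlap. The log2 difference was -0.75 (95% interval -1.04 to -0.46; limma adjusted p = 0.00537). Over all tested genes 3.32% rose and 6.01% fell. With the spread taken from all 12 testes libraries the adjusted p of Cacnb1 was 0.106, and without the mean-variance trend it was 0.0975. Its neighbour Rpl19 had a log2 difference of 0.01. Next by adjusted p was Kcnt1, a sodium-activated channel (-0.86; limma adjusted p = 0.0507).

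The m6A IP of m6Am-Exo-Seq enriches capped fragments with a methylated adenosine. In HET testes 3 of 22 members were higher and 2 lower in IP than in input, where 14.7% of all tested genes were higher and 15.4% lower. Kcnq3 was higher, with 46.6, 59.1 and 46.2 in input and 100, 76.4 and 97.4 in IP (0.84; limma adjusted p = 0.00718), and so were Scn8a (0.73; limma adjusted p = 0.0295) and Kcnj9 (0.61; limma adjusted p = 0.0499). Kcnmb4 gave 598, 822 and 735 in input and 509, 202 and 471 in IP (-0.96; limma adjusted p = 0.0108), and Cacng7 gave 10.3, 12 and 8.76 and 2.98, 5.22 and 2.68 (-1.32; limma adjusted p = 0.0191), both lower. The Cacng7 IP values stand for only 2, 8 and 3 reads. Of the 5 members called, Kcnq3 kept its call under every alternative run. The call of Kcnmb4 was lost without input HET replicate 2 (limma adjusted p = 0.0511). Scn8a, Kcnj9 and Cacng7 each lost theirs under several, with adjusted p up to 0.130, 0.146 and 0.0737.

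IP enrichment rose in KO against HET in 2 members and fell in 0, where 3.72% of all tested genes rose and 6.25% fell. Kcnq3 IP signal was 100, 76.4 and 97.4 in HET and 209.6, 192 and 205 in KO, without overlap, beside inputs of 46.6, 59.1 and 46.2 and 58.5, 36.8 and 46.6. The difference of enrichment was 1.26 (95% interval 0.63 to 1.89; limma adjusted p = 0.0161). It was 1.15 without input HET replicate 2 (limma adjusted p = 0.0502) and 1.10 without input KO replicate 2 (0.0540). Cacnb1 IP signal was 576, 770.0 and 759 in HET and 657, 744 and 829.8 in KO, which overlap, so its difference of 0.84 (limma adjusted p = 0.0388) rests on the lower KO input. Without single libraries the Cacnb1 adjusted p ran up to 0.116, and it was past 0.05 in 8 of 12 such fits. Cacng7 had the largest difference, 1.68 (limma adjusted p = 0.0678), with IP signals of 2.98, 5.22 and 2.68 in HET and 19.5, 19.8 and 12.6 in KO. These stand for only 2, 8 and 3 reads in HET and 13, 9 and 14 in KO. Kcnip2 lay the other way (-0.99; limma adjusted p = 0.108), with 189, 173 and 209.9 and 112, 41.8 and 83.8.

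**Figure D5:**
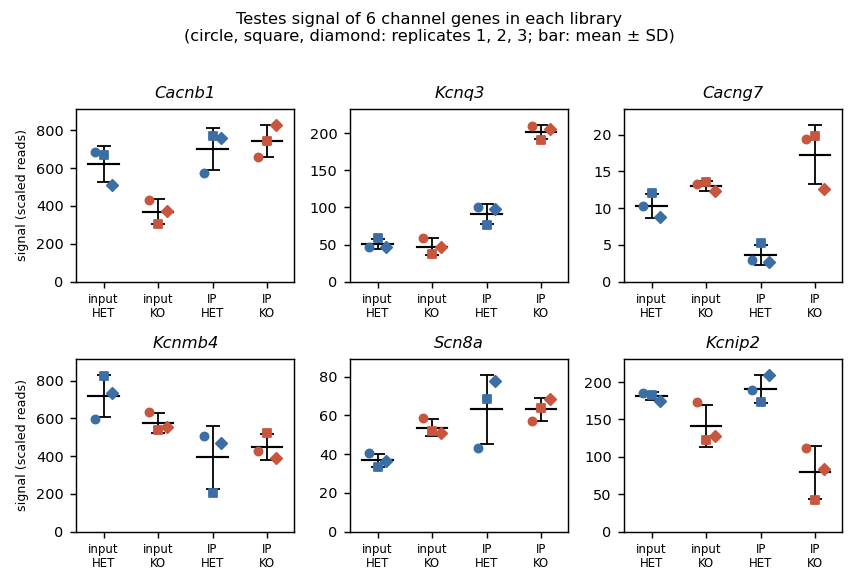
Testes signal (vertical axis, scaled reads, from 0) of 6 channel genes in input and IP libraries of HET (blue) and KO (red), with single libraries as points and the mean and SD of 3 as bars. Cacnb1 input is lower in each KO library than in any HET library, and Kcnq3 IP is higher in each KO library.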

How the data were processed

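Ribosome footprint and input RNA libraries of brain and m6Am-Exo-Seq libraries of testes were taken from 2 deposited tables. In both, the deposited signal of a gene is reads divided by 1 factor per library by the authors, read from the values themselves, with no division by length. Brain reads are estimates (7.74 to 15.6% of values came out whole within 0.01 of a read), so no count model was used there. In testes 100% did, and a count test on recovered reads was run as an alternative. The authors' deposited brain table also gives a log2 fold and an adjusted p-value for efficiency, quoted only where named. Per the submitters' processing notes, DESeq2 1.25.10, DESeq, R 3.6.2, STAR and Salmon 0.12.0 were used, with no step named for any of them. Not given in the sources used here are the genome build, annotation and strand setting.

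Here, limma 3.58.1 (R 4.3.3) was fitted to log2(signal + 1) with a mean-variance trend over all genes whose signal reached 10 in 3 or more libraries of the fit. Fold changes are on that scale and understate those of low genes. P-values were adjusted over all genes tested by Benjamini-Hochberg at 0.05, two-sided. KO against control fits used 6 libraries, and footprint, IP and efficiency contrasts came from 12-library models of 4 group means. Intervals are 95%. The fit was tested on simulated data. A few members are not reported here by name. Among the rest, the rule for naming took every called member where 30 or fewer were called, otherwise the 20 largest, plus a list of well-known subunits. Members, classes, partner and marker lists were chosen with earlier results of these data known. Library numbers follow accession order and were not used to pair libraries, though input and footprints of a brain share a lysate. The labels call the brains separate animals. For testes nothing in the labels says so, and p-values there measure the spread between these samples. No replicates were identical or within counting noise. Positions and promoters are RefSeq, GRCm38.p6, and all 133 symbols matched the RefSeq gene table. Alternatives were other pseudocounts (5 and 0.5), no filter, no trend, 2 other scalings and the spread from all 12 libraries. Further ones were edgeR 4.0.16 on the recovered testes counts, and leaving out each library. The 2 scalings were equal sums and the median ratio within library type. Both used protein-coding genes in brain and all genes in testes.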

Additional observations from a re-analysis of the deposited data

Results flagged for a closer look

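Differences of IP enrichment between KO and HET testes that passed the interaction test were found for 2 channel genes. Kcnq3 IP over input was higher in KO by 1.26 on the log2 scale (limma adjusted p = 0.0161), with all 3 KO IP libraries above all 3 HET ones. For Cacnb1 the difference was 0.84 (limma adjusted p = 0.0388), with overlapping IP values and lower KO input. Both calls end when single libraries are left out: Kcnq3 without input HET replicate 2 (limma adjusted p = 0.0502) or input KO replicate 2 (0.0540), and Cacnb1 in 8 of 12 such fits. Their causes were not tested.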

How the results depend on the processing

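Leaving out single libraries moved the counts of called channel genes to 0 to 4 higher and 0 to 4 lower in KO footprints and to 0 to 4 higher and 0 to 2 lower in efficiency, with every such call in brain coming from the fit without WT footprint replicate 2. In testes they ran from 1 to 3 lower in input, from 1 to 4 higher and 0 to 2 lower in IP against input of HET, and from 0 to 3 higher and 0 to 1 lower in IP enrichment. The extremes were 3 lower in input without input KO replicate 1 (Cacnb1, Kcnip2, Kcnmb4), 0 lower in IP against input without input HET replicate 2, and 0 higher in enrichment without input HET replicate 2 or input KO replicate 2. With the spread from all 12 libraries, brain footprints gave 1 higher member (Kcna6) and testes input 0 lower. Testes input had 2 lower with a pseudocount of 5, 0 lower without the trend and 1 higher with no filter (Scn3b). IP against input had 1 lower with no filter and 1 higher with equal sums, and IP enrichment had 1 higher and 1 lower with no filter. The cause was not tested. In brain input, each alternative run called 0 members. Counts of footprint against input ran over 16 to 26 higher and 35 to 40 lower members in WT and 15 to 21 and 32 to 41 in KO when single libraries were left out, and the genes called were not the same throughout. Of the values of named genes under alternatives, 0 changed sign where the main or the alternative fit called the gene. Sign changes of genes called in neither fit were not counted. Calls over all genes are given only for the fits without WT footprint replicate 2 and for edgeR. Counts under the other alternatives describe the members only. On recovered testes reads, edgeR called 439 genes higher and 650 lower in testes input, 2000 genes higher and 2121 lower in IP against input and 637 genes higher and 807 lower in enrichment over all genes; among members it added Kcnt1 (-0.87, edgeR adjusted p = 0.0381) in IP against input. No paired analysis was possible because the labels carry no replicate numbers that say which input and footprint library came from 1 brain, and the 12 libraries were fitted as independent although they share lysates. Blood markers took the same order over accession numbers in input and footprints of each genotype, a hint from the data and not a label. Depth limited low genes: Kcna6 footprints rest on 16.4 to 24.2 reads in each WT library. In testes, the IP values of Cacng7 rest on 2 to 8 reads in each HET library.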
